A study of Mus musculus with 8 samples.

Results

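The genes described here are 10 mouse genes of eicosanoid synthesis and its regulation, out of 56748 genes in the deposited expression table. They are the phospholipase gene Pla2g4a, the lipoxygenase pathway genes Alox5, Alox5ap, Lta4h, Ltc4s and Alox12, the prostanoid enzyme genes Ptgs1, Ptgs2 and Hpgds, and Anxa1. All 10 symbols were found in the table, each on 1 row. The set was chosen by gene symbol with the levels of these same 8 libraries in view, and Alox5 and Anxa1, which head it, lie at the extremes of the comparison between Jak2V617F dKO and Jak2V617F GLUT1/3 WT clones. There Alox5 stood at rank 7 from the highest log2 difference and Anxa1 at rank 2 from the lowest, among 11818 genes tested. Their levels and differences are therefore given as a description, without a p-value. The other genes of the set were chosen with them. Adjusted p-values given for those genes describe these libraries and are no independent test.

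RNA sequencing covered 32D cells, a mouse myeloid line that depends on interleukin-3 for growth. The cells carried transduced murine Jak2WT or Jak2V617F, the activating mutation of myeloproliferative neoplasms. In each background 2 clones with intact glucose transporters (GLUT1/3 WT) and 2 clones in which CRISPR-Cas9 had targeted both Slc2a1 and Slc2a3 (GLUT1/3 dKO) were sequenced, clones 1 and 3 of each group, which gives 4 groups and 8 libraries. Every culture was kept for 24 h in medium containing glucose at 5 mM, glutamine at 1 mM and interleukin-3 at 2 ng/ml. The lines had passed through single-cell dilution before editing, so the clones of a background share an origin, and the p-values below measure the spread between clones alone. The paper lists the same Slc2a1 deletion for all dKO clones of a background, so these clones may not be independent edits of that gene.

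Eicosanoids are signalling lipids made from arachidonic acid, which cytosolic phospholipase A2 cuts from membrane phospholipids. The 5-lipoxygenase branch turns it into leukotrienes, potent mediators of inflammation made by myeloid cells, and the cyclooxygenase branch turns it into prostaglandins and, in platelets, thromboxane. Annexin A1 is a calcium- and phospholipid-binding protein known to restrain inflammation and to counteract phospholipase A2 activity.

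Levels are given as FPKM, the fragments on a gene scaled to its length and to the library's total, so that levels of different genes can be set side by side. Reads on genes ranged from 16846011 to 48884329 per library. A gene was tested when it reached at least 1 FPKM in at least 2 libraries, which 6 of the 10 genes did: Alox5, Alox5ap, Lta4h, Pla2g4a, Ptgs1 and Anxa1. The differences come from limma on log2(FPKM + 1), a scale that understates the change of genes at low level, with Benjamini-Hochberg adjustment over all 11818 genes, and a gene is called here when its adjusted p is under 0.05. Slc2a1, the GLUT1 gene, lay between 44.7 and 64.0 FPKM in the 4 GLUT1/3 WT libraries and between 9.17 and 17.3 FPKM in the 4 dKO libraries. Slc2a3, the GLUT3 gene, lay between 91.9 and 198 FPKM in the former and between 16.0 and 49.5 FPKM in the latter, and its difference in Jak2WT missed the threshold in limma (adjusted p = 0.0612). Of 11 myeloid progenitor markers 4 passed the filter (Prtn3, Spi1, Il3ra and Csf2rb), while Mpo, Elane, Ctsg, Ms4a3 and Cd34 stayed below 1 FPKM and Cebpa and Kit were at 0.

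The genes lie on 7 chromosomes. The promoters of the 3 tested genes with the largest ratio of highest to lowest level are shown here, to give the sequence at which their transcription starts. Each is the RefSeq sequence (GRCm38.p6 table) from 250 bases before to 50 bases after the start of transcription, and each matched 1 place in GRCm39, the build of the files. Capitals mark every hit, on either strand, of 6 motifs that were searched for. The STAT site, read as TTCNNNGAA, is bound by the transcription factors that JAK2 activates. The GATA site was read as AGATAA and is bound by the GATA factors of blood cells. The GC box was read as GGGCGG and is bound by Sp1. The TATA box, which places the start of transcription in some promoters, was read as TATAAA here. The hypoxia response core, bound by hypoxia-inducible factors, was read with the letters ACGTG alone. The PU.1 core, bound by the myeloid factor PU.1, was read as GAGGAA in either orientation. None of the hits overlap another motif in these 3 promoters.

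Alox5, minus strand, chr6:116438090-116438389: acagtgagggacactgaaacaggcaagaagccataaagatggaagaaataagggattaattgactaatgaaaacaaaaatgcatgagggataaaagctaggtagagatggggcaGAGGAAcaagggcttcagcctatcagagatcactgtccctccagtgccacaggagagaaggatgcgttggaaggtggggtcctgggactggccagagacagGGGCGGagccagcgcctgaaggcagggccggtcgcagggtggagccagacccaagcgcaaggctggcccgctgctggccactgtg

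Ptgs1, plus strand, chr2:36120188-36120487: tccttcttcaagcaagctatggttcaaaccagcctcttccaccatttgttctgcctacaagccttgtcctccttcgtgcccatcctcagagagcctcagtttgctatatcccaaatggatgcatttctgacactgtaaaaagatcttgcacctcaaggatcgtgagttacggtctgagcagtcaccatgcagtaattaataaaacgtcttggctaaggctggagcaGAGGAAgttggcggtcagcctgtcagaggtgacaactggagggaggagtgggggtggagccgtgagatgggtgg

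Anxa1, minus strand, chr19:20367986-20368285: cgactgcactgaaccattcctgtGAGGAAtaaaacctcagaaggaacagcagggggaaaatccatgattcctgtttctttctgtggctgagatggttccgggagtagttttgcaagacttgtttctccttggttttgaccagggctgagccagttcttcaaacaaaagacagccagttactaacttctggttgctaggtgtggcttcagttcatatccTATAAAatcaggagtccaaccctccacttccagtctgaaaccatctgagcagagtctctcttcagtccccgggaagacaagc

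The Alox5 window held a PU.1 core at -136 and a GC box at -35 from the start, the Ptgs1 window a PU.1 core at -24, and the Anxa1 window a PU.1 core at -227 and a TATA box at -32. Among all 32851 RefSeq promoters of this length, 28.3% held a PU.1 core, 35.7% a GC box and 13.6% a TATA box, so each hit is common. STAT sites, in 8.3% of all promoters, GATA sites, in 11.2%, and hypoxia response cores, in 19.6%, had no hit in these 3 windows, which says only that the letters are not there. The RefSeq start of Alox5 and of Ptgs1 is that of the canonical GENCODE transcript, whereas that of Anxa1 lies 339 bases away from it. Alox5 spans 14 exons of its canonical transcript, Ptgs1 11 and Anxa1 13.

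Alox5 encodes 5-lipoxygenase, the enzyme that starts leukotriene synthesis, and its level separated all 4 groups. It was 0.580 and 0.784 FPKM in clones 1 and 3 of Jak2V617F GLUT1/3 WT and 2.65 and 2.08 FPKM in those of Jak2WT GLUT1/3 WT. Among the dKO clones it was 7.37 and 6.36 FPKM in Jak2WT and 20.3 and 9.28 FPKM in Jak2V617F. No pair of neighbouring groups overlapped, and the order was Jak2V617F GLUT1/3 WT, Jak2WT GLUT1/3 WT, Jak2WT dKO and Jak2V617F dKO. Jak2V617F cells thus had the lowest Alox5 level with intact transporters and the highest after their loss.

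The ratio of mean Alox5 levels, dKO over GLUT1/3 WT, was 21.7 in Jak2V617F and 2.90 in Jak2WT, and the log2 differences were 3.14 and 1.23 (SE 0.30 for both). The step from Jak2WT dKO to Jak2V617F dKO was the least even. For Alox5 the 2 Jak2V617F dKO clones differed from each other more than any other pair of clones of a group did. Against the Jak2WT dKO clones their log2 difference was 0.92 (SE 0.30), or 1.08 in voom on the reads. Without clone 3 of Jak2V617F dKO it was 1.44 and without clone 1 it was 0.39, where the lone remaining clone is taken to vary like the other groups. Reads on Alox5 numbered 51 and 96 in Jak2V617F GLUT1/3 WT, 431 and 148 in Jak2WT GLUT1/3 WT, 864 and 1287 in Jak2WT dKO and 2898 and 961 in Jak2V617F dKO.

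**Figure D1:**
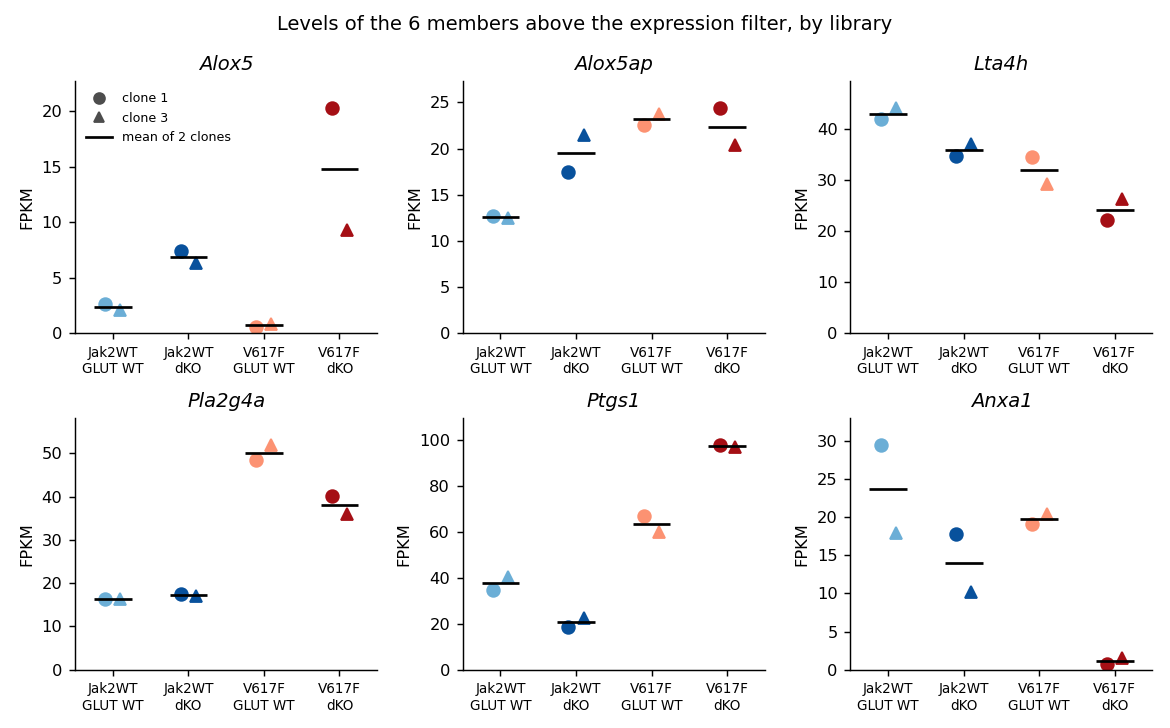
Level in FPKM (vertical axes, each from 0) of Alox5, Alox5ap, Lta4h, Pla2g4a, Ptgs1 and Anxa1 in the 4 groups, with a circle for clone 1, a triangle for clone 3 and a bar for the mean of the 2 clones. Alox5 reached 20.3 and 9.28 in Jak2V617F dKO while Anxa1 lay at 0.721 and 1.58 there, and Ptgs1 and Pla2g4a were higher in every Jak2V617F library than in every Jak2WT library.

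Alox5ap encodes the 5-lipoxygenase activating protein, FLAP, which presents arachidonic acid to 5-lipoxygenase. Its level was 12.7 and 12.4 FPKM in Jak2WT GLUT1/3 WT, 17.5 and 21.5 FPKM in Jak2WT dKO, 22.6 and 23.7 FPKM in Jak2V617F GLUT1/3 WT, and 24.4 and 20.4 FPKM in Jak2V617F dKO. The Jak2WT GLUT1/3 WT clones were lowest, the Jak2WT dKO clones overlapped with the Jak2V617F dKO clones, and both Jak2V617F groups overlapped with each other. It rose with dKO in Jak2WT, by a log2 difference of 0.59 (SE 0.12, adjusted p = 0.0228 in limma), a call that was lost without any 1 of the 4 Jak2WT libraries (log2 differences 0.45 to 0.73). In Jak2V617F the log2 difference was -0.052 (95% interval -0.33 to 0.23, adjusted p = 0.778 in limma). Between backgrounds it was higher in Jak2V617F with intact transporters, by 0.83 (SE 0.12, adjusted p = 0.00313 in limma), and among dKO clones the difference was 0.19 (95% interval -0.092 to 0.47, adjusted p = 0.323 in limma).

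Alox5ap stood above Alox5 in each of the 8 libraries. The ratio of Alox5 to Alox5ap in FPKM was 0.0257 and 0.0331 in the Jak2V617F GLUT1/3 WT clones and 0.832 and 0.455 in the Jak2V617F dKO clones. In Jak2WT it went from 0.209 and 0.167 to 0.421 and 0.296.

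Lta4h encodes leukotriene A4 hydrolase, which makes the neutrophil attractant leukotriene B4 and is expressed in most cell types. It stood at 41.9 and 44.1 FPKM in Jak2WT GLUT1/3 WT, 34.6 and 37.0 FPKM in Jak2WT dKO, 34.6 and 29.1 FPKM in Jak2V617F GLUT1/3 WT and 22.0 and 26.2 FPKM in Jak2V617F dKO. The Jak2WT GLUT1/3 WT clones were highest and the Jak2V617F dKO clones lowest, and the highest clone of Jak2V617F GLUT1/3 WT came up to the lowest of Jak2WT dKO, both at 34.6 FPKM. Lta4h was lower in Jak2V617F than in Jak2WT among GLUT1/3 WT clones (log2 difference -0.43, SE 0.11, adjusted p = 0.0292 in limma) and among dKO clones (-0.56, SE 0.11, adjusted p = 0.0180 in limma). With dKO it fell in Jak2V617F by 0.39 on the log2 scale (SE 0.11, adjusted p = 0.0404 in limma), a call that 10 of 16 alternative settings took away, while in Jak2WT the difference of -0.26 was not called (adjusted p = 0.174 in limma). The difference of these 2 changes was not called either (log2 -0.13, 95% interval -0.51 to 0.25). Both calls between backgrounds were lost without any 1 of 3 libraries, with log2 differences of -0.31 to -0.46 among GLUT1/3 WT clones (without clone 1 or 3 of Jak2WT or clone 3 of Jak2V617F) and of -0.44 to -0.60 among dKO clones (without clone 1 or 3 of Jak2WT or clone 1 of Jak2V617F).

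Ltc4s, the gene of leukotriene C4 synthase, which opens the cysteinyl leukotriene branch, gave 4 reads over all 8 libraries. It was at 0 reads in 5 libraries, a count that allows up to between 0.0747 and 0.171 FPKM in the single library. Alox12, the gene of the platelet-type 12-lipoxygenase, gave 92 reads in all and lay between 0.0171 and 0.160 FPKM. Its 4 Jak2V617F libraries, at 0.0971 to 0.160 FPKM, lay above its 4 Jak2WT libraries, at 0.0171 to 0.0847 FPKM, on 10 to 21 and 2 to 15 reads a library, and no test was run at this level. Intervals and limits from counts cover counting error alone, since the reads carry no molecular identifiers.

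Pla2g4a encodes cytosolic phospholipase A2 alpha, which releases the arachidonic acid for both branches. The Jak2WT libraries lay close together, at 16.3 and 16.4 FPKM in GLUT1/3 WT and 17.5 and 17.0 FPKM in dKO. Jak2V617F GLUT1/3 WT stood at 48.4 and 52.0 FPKM and Jak2V617F dKO at 40.1 and 35.9 FPKM. Its level differed by background, with a 3.08-fold higher mean in Jak2V617F among GLUT1/3 WT clones (log2 1.56, SE 0.083, adjusted p = 8.8e-05 in limma) and a 2.20-fold higher mean among dKO clones (log2 1.09, SE 0.083, adjusted p = 0.000477 in limma). With dKO it fell in Jak2V617F by 0.39 on the log2 scale (SE 0.083, adjusted p = 0.0126 in limma), and in Jak2WT the difference was 0.076 (95% interval -0.12 to 0.27, adjusted p = 0.575 in limma). The call in Jak2V617F was lost without clone 3 of Jak2V617F GLUT1/3 WT (log2 -0.34) and when only the 4 Jak2V617F libraries were fitted (adjusted p = 0.0729 in limma). The difference between the 2 changes, -0.47 (SE 0.12, adjusted p = 0.0474 in limma), was lost in 11 of 15 alternative settings.

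Ptgs1 encodes cyclooxygenase-1, the constitutive cyclooxygenase and the one that platelets use, and it moved in opposite directions in the backgrounds. In Jak2WT it went from 34.8 and 40.4 FPKM in GLUT1/3 WT to 18.4 and 22.6 FPKM in dKO. In Jak2V617F it went from 67.0 and 59.8 FPKM to 97.8 and 96.9 FPKM. No groups overlapped, and the order was Jak2WT dKO, Jak2WT GLUT1/3 WT, Jak2V617F GLUT1/3 WT and Jak2V617F dKO.

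Ptgs1 thus fell with dKO in Jak2WT by 0.84 on the log2 scale (SE 0.12, adjusted p = 0.00842 in limma) and rose with dKO in Jak2V617F by 0.61 (SE 0.12, adjusted p = 0.00987 in limma). The difference between the 2 changes was 1.46 (SE 0.17, adjusted p = 0.00898 in limma). Between backgrounds it was 1.69-fold higher in Jak2V617F with intact transporters (log2 0.74, SE 0.12, adjusted p = 0.00480 in limma) and 4.74-fold higher after their loss (log2 2.20, SE 0.12, adjusted p = 0.000181 in limma). The fall in Jak2WT was not called without clone 1 of Jak2WT GLUT1/3 WT, clone 3 of the same group or clone 1 of Jak2WT dKO (log2 -0.95, -0.74 and -0.70), and the difference between the changes was not called without clone 3 of Jak2WT GLUT1/3 WT (1.36). The other 3 calls held in each of 16 alternative settings.

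Gm43621, an unverified transcript annotated on the opposite strand within Ptgs1 (chr2:36138721-36140742), lay between 0.462 and 3.23 FPKM and was highest in the Jak2V617F dKO libraries too. Whether strand was used in counting is not given in the sources used here, so reads of the 2 genes cannot be told apart where they overlap. In the same way 9 of the 10 genes overlap some annotated gene on the opposite strand. That of Anxa1, 1500015L24Rik, was listed at 0 in all libraries. Gm13431, the nearest tested gene upstream of Ptgs1, was at 0.0769 to 0.481 FPKM in Jak2WT and at 4.39 to 8.72 FPKM in Jak2V617F.

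Of the remaining prostanoid enzymes, Ptgs2, the gene of the inducible cyclooxygenase-2, gave 4 reads over all libraries and 0 in 6 of them, where 0 allows between 0.0133 and 0.0378 FPKM. Hpgds, the gene of the haematopoietic prostaglandin D synthase known from mast cells and megakaryocytes, gave 123 reads and lay between 0.0370 and 0.149 FPKM with overlap between most groups. Ptgs1 was thus the cyclooxygenase gene with reads at any level that could be compared here.

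**Figure D2:**
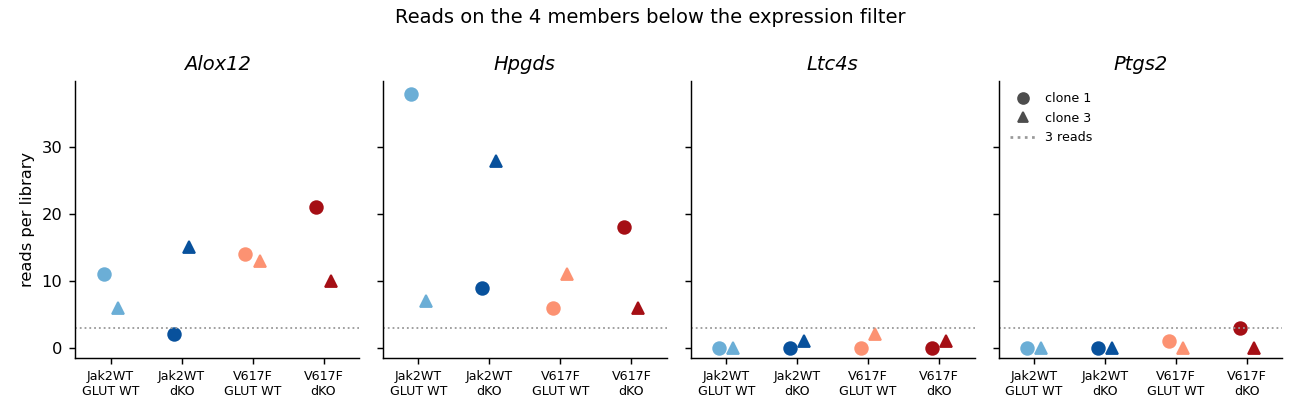
Reads per library (vertical axis) on Alox12, Hpgds, Ltc4s and Ptgs2 in the 4 groups, with a circle for clone 1, a triangle for clone 3 and a dotted line at 3 reads. Alox12 and Hpgds stayed at 38 reads or fewer in each library, and Ltc4s and Ptgs2 did not pass 3.

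Anxa1 encodes annexin A1 and had the pattern nearest to the opposite of Alox5 among these genes. Its level was 29.5 and 17.9 FPKM in Jak2WT GLUT1/3 WT, 17.8 and 10.2 FPKM in Jak2WT dKO, 19.1 and 20.4 FPKM in Jak2V617F GLUT1/3 WT and 0.721 and 1.58 FPKM in Jak2V617F dKO. The Jak2V617F dKO clones stood far below all others, on 73 and 116 reads. The GLUT1/3 WT groups overlapped, and the highest Jak2WT dKO clone, at 17.8 FPKM, came within the spread of clones of the lowest Jak2WT GLUT1/3 WT clone, at 17.9 FPKM.

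For Anxa1 the mean level was 17.2-fold lower with dKO in Jak2V617F and 1.69-fold lower in Jak2WT, with log2 differences of -3.30 and -0.72 (SE 0.31 for both). With 0.1 in place of 1 added to FPKM they were -4.08 and -0.76, and in voom on the reads -4.25 and -0.88. The value in Jak2WT rested on single clones, being -0.38 without clone 1 of GLUT1/3 WT, -1.07 without clone 3 of that group, -1.10 without clone 1 of dKO and -0.35 without clone 3 of dKO. Between backgrounds the log2 difference was -0.21 (SE 0.31) with intact transporters, where the sign turned without clone 1 of Jak2WT GLUT1/3 WT (0.13), and -2.78 (SE 0.31) among dKO clones, where the mean was 12.2-fold lower in Jak2V617F.

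Set against each other, Alox5 and Anxa1 changed places in Jak2V617F dKO. The ratio of Alox5 to Anxa1 in FPKM was 0.0899 and 0.116 in Jak2WT GLUT1/3 WT, 0.414 and 0.622 in Jak2WT dKO, 0.0304 and 0.0384 in Jak2V617F GLUT1/3 WT and 28.1 and 5.87 in Jak2V617F dKO. Anxa1 was the more abundant of the 2 RNAs in 6 libraries and Alox5 in the 2 of Jak2V617F dKO, where the clone with more Alox5, clone 1, also had less Anxa1. Over the 8 libraries Pearson's r of their log2 levels was -0.80, a description of points that fall into 4 groups and share the selection of both genes.

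**Figure D3:**
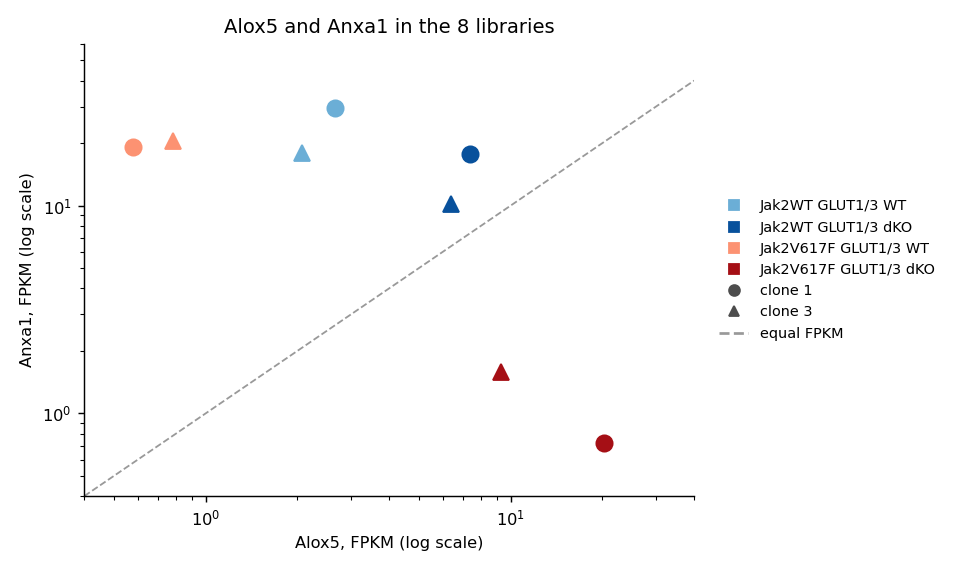
Level of Anxa1 (vertical axis) against that of Alox5 (horizontal axis), both in FPKM on log scales, in the 8 libraries, with colours for the groups, a circle for clone 1, a triangle for clone 3 and a dashed line where both levels are equal. The 2 Jak2V617F dKO libraries, with ratios of 28.1 and 5.87, are the ones on the Alox5 side of the line.

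Alox5 and Anxa1 are left out of the counts of calls, which run over Alox5ap, Lta4h, Pla2g4a and Ptgs1. With dKO in Jak2WT 1 of these 4 was higher (Alox5ap), 1 lower (Ptgs1) and 2 were not called. Over all tested genes 7.62% were called higher and 6.06% lower in this comparison. With dKO in Jak2V617F 1 of the 4 was higher (Ptgs1), 2 were lower (Lta4h and Pla2g4a) and 1 was not called, where 13.7% of all tested genes were called higher and 16.2% lower. Since the set was chosen with these libraries in view, counts above the background are no result of their own.

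Jak2V617F against Jak2WT with intact transporters gave 3 of the 4 higher (Alox5ap, Pla2g4a and Ptgs1) and 1 lower (Lta4h), beside 15.3% higher and 14.9% lower among all tested genes. The same comparison among dKO clones gave 2 higher (Pla2g4a and Ptgs1), 1 lower (Lta4h) and 1 not called, beside 7.12% and 9.96%. The interaction, the change with dKO in Jak2V617F minus that in Jak2WT, gave 1 higher (Ptgs1), 1 lower (Pla2g4a) and 2 not called, beside 4.72% and 5.91%. The comparisons share libraries, so a gene's values in them are not independent of each other. Of the 4, Pla2g4a and Ptgs1 were those called higher in Jak2V617F in both transporter states, and Lta4h the one called lower in both.

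**Figure D4:**
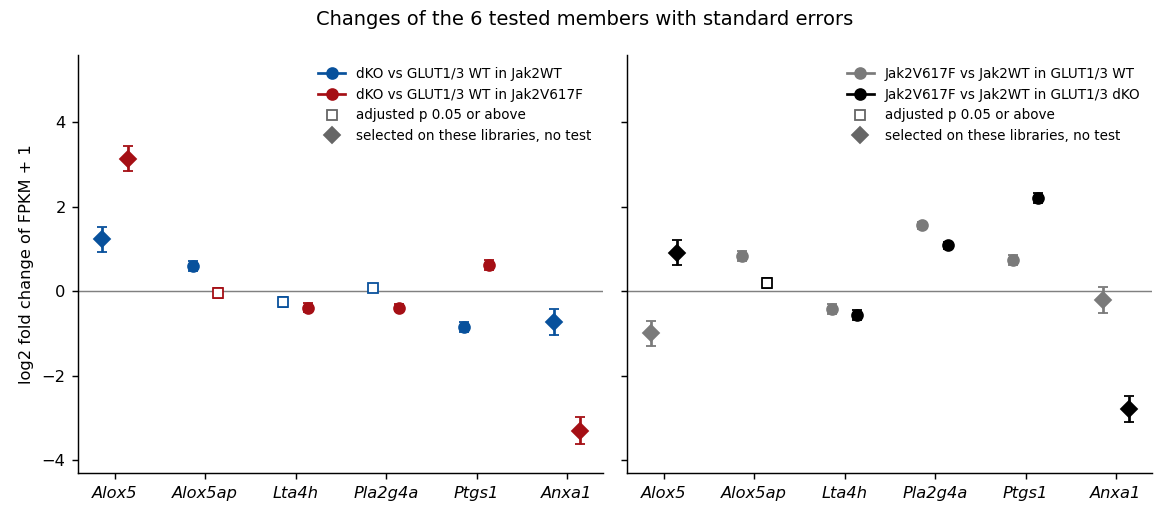
Log2 fold change of FPKM + 1 (vertical axis) of the 6 tested genes for dKO against GLUT1/3 WT in each background (left) and for Jak2V617F against Jak2WT in each transporter state (right), with bars for 1 standard error, circles for an adjusted p under 0.05, open squares otherwise and diamonds for the 2 genes selected on these libraries. Ptgs1 lies below 0 with dKO in Jak2WT (-0.84) and above 0 with dKO in Jak2V617F (0.61), and Alox5 and Anxa1 lie farthest from 0 with dKO in Jak2V617F (3.14 and -3.30).

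The rest of the pathway was read from a list of 82 other genes, of which 81 were found and 40 passed the filter. With dKO in Jak2WT 2 of the 40 rose, 4 fell and 34 were not called, beside 7.62% higher and 6.06% lower among all tested genes (median log2 0.027, against 0.0082). With dKO in Jak2V617F 4 rose, 9 fell and 27 were not called, beside 13.7% and 16.2% (median -0.090, against -0.019). Jak2V617F against Jak2WT gave 8 higher, 7 lower and 25 not called with intact transporters, beside 15.3% and 14.9% (median -0.013, against 0.0076), and 2 higher, 8 lower and 30 not called among dKO clones, beside 7.12% and 9.96% (median -0.045, against -0.023). The interaction gave 2 higher and 5 lower, beside 4.72% and 5.91%. When the libraries were scaled to the same summed FPKM, the interaction gave 5 higher and 4 lower, Jak2V617F against Jak2WT with intact transporters 6 higher and 13 lower, dKO in Jak2V617F 7 higher and 8 lower, and dKO in Jak2WT 3 higher and 8 lower, as did voom on the reads for the last of these. Pla2g4c, Pla2g2e, Ephx2 and Anxa3 had a mean under 1 FPKM and reached the filter through their highest libraries, and 44 of the 51 calls belong to other genes. For them the filter drew on the levels compared, so counts that hold their calls are a description. With a filter on the mean, which leaves them out, dKO gave 3 higher and 3 lower in Jak2WT and 3 and 9 in Jak2V617F. Jak2V617F against Jak2WT then gave 6 and 6 with intact transporters and 1 and 8 among dKO clones, and the interaction 1 and 5. Of the 51 calls 16 held whichever library was left out, and they include those of Cotl1 in Jak2WT and of Fads1, Mgst2, Mgst3, Ltb4r1, Anxa2 and Anxa5 with dKO in Jak2V617F.

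By role, the arachidonate supply genes come next after the enzymes themselves. Fads1, a fatty acid desaturase on the route to arachidonic acid, went from 87.5 and 91.0 FPKM to 52.5 and 53.5 FPKM in Jak2WT (log2 -0.74, adjusted p = 0.00576 in limma) and from 96.1 and 83.8 FPKM to 51.9 and 54.0 FPKM in Jak2V617F (-0.75, adjusted p = 0.00142 in limma). Fads2, the desaturase before it, fell in Jak2WT by 0.75 on the log2 scale (adjusted p = 0.0106 in limma). In Jak2WT the call of Fads1 was lost without clone 1 or clone 3 of GLUT1/3 WT (log2 -0.77 and -0.71) and that of Fads2 without any 1 of the 4 libraries (-0.70 to -0.80). In all, 2 of 6 tested genes of this role fell in Jak2WT (5 in voom on the reads) and 3 of 6 in Jak2V617F (3 in voom), where 6.06% and 16.2% of all tested genes were called lower. Of the 3 calls in Jak2V617F that of Acsl4, an acyl-CoA synthetase, was lost without clone 3 of GLUT1/3 WT (log2 -0.34) or clone 1 of dKO (-0.30), and that of Lpcat3, a lysophospholipid acyltransferase, without clone 1 of GLUT1/3 WT (-0.31) or clone 3 of dKO (-0.41). In limma 0 of the 6 rose in either, where 1 in Jak2WT and 0 in Jak2V617F were higher at an unadjusted p under 0.05, and in voom 0 rose in both. Elovl5, an elongase of the same route, was lower in Jak2V617F in both transporter states (log2 -1.12 and -0.91, adjusted p = 0.000381 and 0.000968 in limma), with 50.7 and 55.3 FPKM in Jak2WT GLUT1/3 WT and 24.0 and 23.9 FPKM in Jak2V617F GLUT1/3 WT.

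Among the other phospholipases A2, 7 of 14 passed the filter. With dKO 1 of the 7 was lower in Jak2WT, beside 6.06% of all tested genes, and 1 was higher in Jak2V617F, beside 13.7%. Jak2V617F against Jak2WT gave 2 higher and 2 lower with intact transporters, beside 15.3% and 14.9%, and 1 higher and 1 lower among dKO clones, beside 7.12% and 9.96%. The gene higher with dKO in Jak2V617F was Pla2g4c, which reached 1 FPKM in the Jak2V617F dKO libraries alone (1.07 and 1.51 FPKM, against 0.262 to 0.512 elsewhere), so its values are a description. Pla2g2e reached 1 FPKM in the Jak2V617F GLUT1/3 WT libraries alone. The filter took in both genes through a compared group, so the counts of higher genes above are a description and no comparison with all tested genes. Pla2g15, a lysosomal enzyme, fell with dKO in Jak2WT from 9.43 and 8.19 FPKM to 5.10 and 6.17 FPKM (log2 -0.57, adjusted p = 0.0283 in limma). Pla2g12a was lower in Jak2V617F than in Jak2WT among dKO clones, at 6.09 and 8.23 FPKM against 12.4 and 13.5 FPKM (log2 -0.78, adjusted p = 0.00732 in limma). The former call was lost without any 1 of the 4 Jak2WT libraries (log2 -0.45 to -0.68) and the latter without clone 3 of Jak2WT dKO (-0.72).

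Of the genes listed for leukotriene processing 7 were tested, among them Cotl1 and Ephx2, which do not themselves convert leukotrienes. With dKO 1 was higher and 0 were lower in Jak2WT in limma (2 lower at an unadjusted p under 0.05, and 1 in voom), beside 7.62% and 6.06% of all tested genes, and 1 was higher and 2 were lower in Jak2V617F, beside 13.7% and 16.2%. The interaction gave 1 higher (Mgst3) and 3 lower (Cotl1, Mgst2 and Ggt1), beside 4.72% and 5.91%, and each of these 4 calls was lost in at least 3 of the 8 fits that leave out 1 library. Cotl1, an actin-binding protein known to bind 5-lipoxygenase, rose with dKO in Jak2WT from 15.4 and 15.2 FPKM to 64.8 and 44.2 FPKM (log2 1.74, adjusted p = 0.00475 in limma), and in Jak2V617F it stood at 32.8 and 25.5 FPKM without and 33.7 and 40.8 FPKM with dKO. Mgst2, a microsomal glutathione transferase that can make leukotriene C4, fell with dKO in Jak2V617F from 7.77 and 8.02 FPKM to 3.51 and 4.23 FPKM (log2 -0.87, adjusted p = 0.00126 in limma). With intact transporters it was higher in Jak2V617F than in Jak2WT (log2 0.98, adjusted p = 0.000918 in limma).

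Its relative Mgst3 rose with dKO in Jak2V617F from 4.72 and 3.91 FPKM to 15.2 and 9.36 FPKM (log2 1.29, adjusted p = 0.00649 in limma). Among dKO clones it was higher in Jak2V617F (log2 1.33, adjusted p = 0.00932 in limma), a call lost without clone 3 of Jak2WT dKO (1.11). Ggt1, a gamma-glutamyltransferase that turns leukotriene C4 into D4, was lower there, at 0.557 and 0.430 FPKM against 3.60 and 3.40 FPKM in Jak2WT (log2 -1.59, adjusted p = 0.000600 in limma). Ephx2, a soluble epoxide hydrolase, stood at 1.82 and 1.84 FPKM in Jak2V617F GLUT1/3 WT against 0.163 and 0.139 FPKM in Jak2WT GLUT1/3 WT, and it passed the filter through Jak2V617F libraries alone, so these values are a description.

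Of 14 eicosanoid receptor genes 3 passed the filter. Ltb4r1, the high-affinity receptor for leukotriene B4, rose with dKO in Jak2V617F from 2.65 and 2.17 FPKM to 6.07 and 5.46 FPKM (log2 0.99, adjusted p = 0.00302 in limma). Ltb4r2, the low-affinity receptor, rose there too (log2 0.80, adjusted p = 0.0266 in limma), with a maximum of 2.40 FPKM and a call lost without either Jak2V617F GLUT1/3 WT clone or clone 1 of dKO (0.51 to 0.86). In Jak2WT 0 of the 3 were called in limma (0 at an unadjusted p under 0.05, and 0 in voom), beside 7.62% higher and 6.06% lower among all tested genes, and Ltb4r1 stood at 3.42 and 3.18 FPKM without and 3.59 and 4.98 FPKM with dKO. The interaction was called for 0 of the 3 in limma, with 2 higher at an unadjusted p under 0.05 and 0 in voom, beside 4.72% and 5.91%, so the receptors are not shown to differ in their change between backgrounds. No other lipoxygenase gene passed the filter (0 of 5). Of the prostanoid synthases and exporters 5 of 10 passed, and with dKO in Jak2V617F 0 of the 5 were called in limma, while 1 was higher at an unadjusted p under 0.05 and 1 in voom, beside 13.7% higher and 16.2% lower among all tested genes.

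Relatives and partners of annexin A1 were the last group, in which Anxa2 and Anxa5 stood above Anxa1 in each of the 8 libraries. With dKO in Jak2V617F 4 of 10 tested fell and 0 rose in limma (1 was higher at an unadjusted p under 0.05, and 1 in voom on the reads), with a median log2 difference of -0.35. Over all tested genes 16.2% were called lower and 13.7% higher, and the median was -0.019. Anxa2, a membrane-binding annexin that pairs with S100a10, went from 122 and 101 FPKM to 59.0 and 38.2 FPKM (log2 -1.21, adjusted p = 0.00663 in limma). Anxa5, the annexin used to stain dying cells, went from 170 and 162 FPKM to 74.2 and 86.1 FPKM (log2 -1.04, adjusted p = 0.00117 in limma). With intact transporters it was 2.57-fold higher in Jak2V617F than in Jak2WT (log2 1.35, adjusted p = 0.000525 in limma). Anxa6 (log2 -0.48) and Anxa9 (log2 -0.72) fell as well, but the call of Anxa6 was lost without clone 1 of Jak2V617F GLUT1/3 WT or clone 3 of dKO (-0.37 and -0.33) and that of Anxa9 without clone 3 of the former or clone 1 of the latter (-0.42 and -0.60).

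In Jak2WT 1 of these 10 genes, Anxa5, was called higher with dKO, beside 7.62% of all tested genes. Anxa5 rose from 63.8 and 65.2 FPKM to 100 and 82.7 FPKM (log2 0.49, adjusted p = 0.0336 in limma), a call lost without any 1 of the 4 Jak2WT libraries (0.35 to 0.63). Its interaction was -1.53 (adjusted p = 0.00867 in limma), and was not called without clone 3 of Jak2WT GLUT1/3 WT (-1.55). Anxa3 stood at 2.62 and 3.18 FPKM in Jak2WT GLUT1/3 WT, 0.404 and 0.680 FPKM in Jak2WT dKO and between 0.101 and 0.213 FPKM in the Jak2V617F libraries. It passed the filter through the 2 Jak2WT GLUT1/3 WT libraries alone, so its values are a description. Anxa2 stood at 121 and 114 FPKM without and 107 and 81.3 FPKM with dKO, and was lower in Jak2V617F than in Jak2WT among dKO clones (log2 -0.96, adjusted p = 0.0238 in limma), though not without clone 1 of Jak2WT dKO (-0.76) or clone 3 of Jak2V617F dKO (-0.65). Fpr2, a receptor of annexin A1, was at 0 in all libraries.

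**Figure D5:**
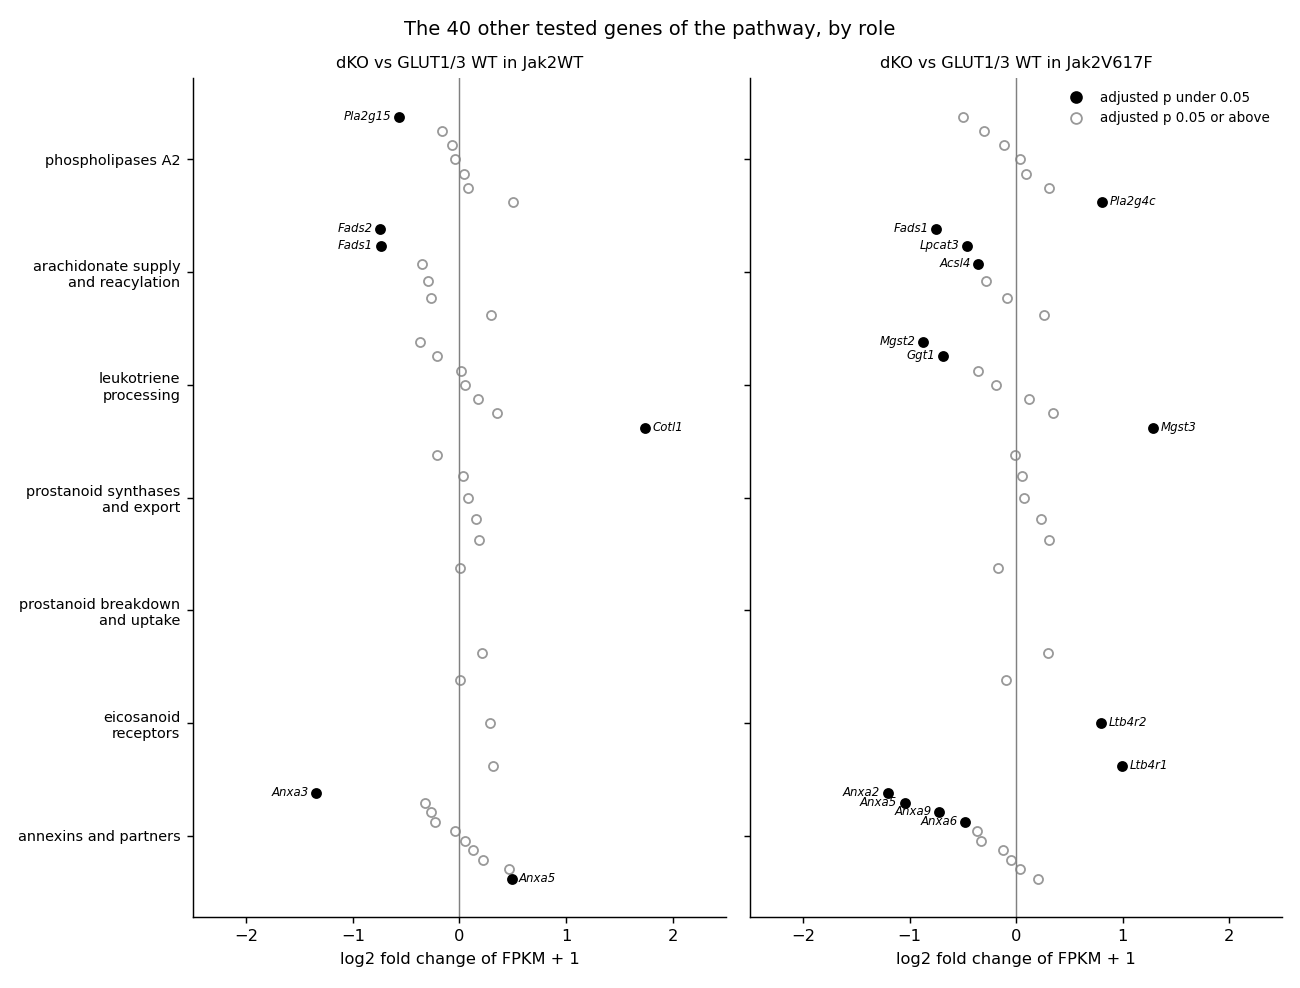
Log2 fold change of FPKM + 1 (horizontal axis) with dKO in Jak2WT (left) and in Jak2V617F (right) of the 40 other tested pathway genes, grouped by role (vertical axis), filled and named where the adjusted p was under 0.05. In Jak2V617F the annexins Anxa2, Anxa5, Anxa9 and Anxa6 lie left of 0 and the leukotriene B4 receptors Ltb4r1 and Ltb4r2 right of 0.

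Markers of blood cell types moved across the same groups, and their part in these results was not tested. In bulk RNA, fewer cells of a type and less RNA per cell cannot be told apart. Ptgs1 and Alox12 are known from platelets, and the summed level of 9 megakaryocyte and platelet markers was 65.1 to 65.8 FPKM in Jak2WT GLUT1/3 WT, 89.4 to 94.4 in Jak2WT dKO, 183 to 193 in Jak2V617F GLUT1/3 WT and 194 to 249 in Jak2V617F dKO. Most of the sum was Itga2b, at 61.3 to 87.0 FPKM in Jak2WT and 169 to 184 FPKM in Jak2V617F. Of these markers 5 passed the filter, and Gp1bb was at 0 while Vwf, Gp6 and Treml1 stayed below 1 FPKM. In Jak2WT the sum was higher with dKO, while Ptgs1 was lower with dKO. Pf4 was at 28.2 and 2.03 FPKM in clones 1 and 3 of Jak2V617F dKO and at most 0.326 FPKM elsewhere, so the clone with more Alox5 also had more Pf4.

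Of 9 neutrophil markers 6 passed, and their sum was 85.9 to 216 FPKM in Jak2WT GLUT1/3 WT, 82.9 to 141 in Jak2WT dKO, 6.44 to 6.73 in Jak2V617F GLUT1/3 WT and 31.2 to 35.4 in Jak2V617F dKO. Eosinophil markers (2 of 5 passed) summed to 92.4 to 132, 26.5 to 37.9, 0.548 to 1.75 and 5.47 to 14.2 FPKM in the same order. Both sums were lowest in Jak2V617F GLUT1/3 WT. The neutrophil sum came mostly from S100a9, Ngp and S100a8 in Jak2WT, and Cxcr2, a chemokine receptor on the list, had another pattern. It stood at 1.57 and 3.78 FPKM in Jak2WT GLUT1/3 WT, 10.8 and 9.82 FPKM in Jak2WT dKO, 4.30 and 4.68 FPKM in Jak2V617F GLUT1/3 WT and 29.7 and 21.0 FPKM in Jak2V617F dKO, so that, like Alox5, it was highest in Jak2V617F dKO and higher in the dKO clones of each background. For mast cells and basophils 2 of 12 markers passed, and the sum lay at 203 to 219, 168 to 224, 157 to 165 and 123 to 163 FPKM, with Mcpt4, Tpsb2, Tpsab1 and Mrgprb2 at 0 and its 2 passing markers differing. Cpa3, a mast cell protease, lay between 50.8 and 100.5 FPKM in Jak2WT and between 0 and 1.67 FPKM in Jak2V617F, whereas Gata2 lay between 116 and 124 FPKM in the former and between 119 and 163 FPKM in the latter.

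The monocyte and macrophage sum was 47.6 to 51.1, 48.4 to 59.6, 46.7 to 64.3 and 16.3 to 20.4 FPKM, nearly all from Adgre1 (1 of 8 passed, with Csf1r and Cd14 below 1 FPKM and C1qa at 0). Like Anxa1 it was lowest in Jak2V617F dKO. The myeloid progenitor sum was lowest there as well, at 80.4 to 81.8 FPKM against 144 to 221 FPKM in the other groups, mostly from Csf2rb. Erythroid markers (6 of 9 passed) summed to 63.1 to 83.2, 221 to 262, 505 to 852 and 2548 to 4638 FPKM, highest in Jak2V617F dKO. Lymphoid markers, 0 of 7 past the filter, stayed at 0.881 FPKM or less in sum.

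Over the 8 libraries, the tested genes with the pattern most like that of Alox5, by Pearson's r of log2(FPKM + 1), were Cactin (0.99), Pitpnm1 (0.98), Myo9b (0.98), Zfp7 (0.97) and Ccne2 (0.97). Their changes were far smaller than that of Alox5: Cactin lay between 13.6 and 18.8 FPKM, and the widest range was that of Ccne2, a cyclin of the G1 to S transition, at 9.33 to 31.4 FPKM. Those most like Anxa1 were Armc8, Wdfy2, Cd82, 2310015A10Rik and Gng2 (0.98 to 0.99), and among them Gng2, a G protein gamma subunit, came nearest in size, with 0.197 and 0.795 FPKM in Jak2V617F dKO and 5.68 to 10.2 FPKM elsewhere. Among the members, Alox5 had r of 0.19 with Alox5ap, -0.55 with Lta4h, -0.17 with Pla2g4a and 0.087 with Ptgs1.

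The nearest tested genes on each side of Alox5 and Anxa1 did not share these ranges. Genes below the filter were not considered as neighbours. Marchf8, next to Alox5 on one side, lay between 4.81 and 7.80 FPKM, and Zfp422, on the other, between 12.9 and 15.6 FPKM. Around Anxa1 (chr19:20350792-20368308), D030056L22Rik lay between 17.9 and 28.7 FPKM and Zfand5 between 10.3 and 16.6 FPKM. These 2 are not close to it, since D030056L22Rik ends at 18695792 and Zfand5 starts at 21249642. The order of the groups in these 4 genes was not that of the member they flank. In D030056L22Rik it was the reverse of that of Anxa1, from 18.3 and 17.9 FPKM in Jak2WT GLUT1/3 WT to 28.7 and 26.7 FPKM in Jak2V617F dKO.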

How the data were processed

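RNA of 8 clones of 32D cells was sequenced as paired reads. According to the submitters' processing notes, reads were cleaned with fastp 1.0.1, aligned to mm39 with HISAT2 2.2.1 and counted per gene with featureCounts 2.0.6. The annotation version and the strand setting are not given in the sources used here. The deposited table holds 1 FPKM value per gene and library, made by the authors from those counts, and 0 of its per-sample columns were left out. FPKM times gene length was a whole multiple of 1 step in each library for 100% of values (tolerance 0.01 of a step), which gave the reads per gene, 16846011 to 48884329 per library.

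Genes with at least 1 FPKM in at least 2 libraries were tested, 11818 of 56748. Log2(FPKM + 1) was fitted by limma (version 3.58.1, R 4.3.3) with 1 mean per group, all 8 libraries in a single fit, the trend of the spread on level, 4 residual degrees of freedom (3.34 more from the spread shared across genes) and Benjamini-Hochberg adjustment at 0.05. An exact permutation test of 2 against 2 libraries cannot go below 0.333, so none was run. The script was tested on simulated data. The genes and lists were chosen with earlier results of these data known. The text names all 10 genes, Slc2a1 and Slc2a3, in each of the 4 comparisons of 2 groups the 5 other pathway genes with the largest called change, the 5 genes most correlated with Alox5 and with Anxa1, and genes of the marker lists. Of the marker genes first listed, 2 are not reported here. Other pathway genes, genes overlapping or next to the members, Ltb4r2, Anxa6, Anxa9, Pla2g4c, Acsl4, Lpcat3, Cxcr2, Cpa3 and Gata2 were added after their values were seen, and of the 82 listed genes Dpep2 was not found. Alternatives were another pseudocount (0.1), no filter, a filter on the mean, 2 other scalings, voom (limma) on the recovered reads, a fit of the compared groups alone, clone number as a replicate block, and leaving out each library. Promoters came from RefSeq and gene models from GENCODE on GRCm39.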

Additional observations from a re-analysis of the deposited data

Results flagged for a closer look

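Alox5 and Anxa1 are left out here, since they were chosen on these libraries. The other tested genes belong to the same set, so their calls are a description too. For 2 of the other 4 tested genes the change with dKO differed between the backgrounds by the interaction term of limma, where 4.72% of all tested genes were called higher and 5.91% lower. The log2 change in Jak2V617F minus that in Jak2WT was 1.46 for Ptgs1, with all dKO clones below the GLUT1/3 WT clones in Jak2WT and above them in Jak2V617F. It was not called without clone 3 of Jak2WT GLUT1/3 WT. For Pla2g4a it was -0.47, with the dKO clones above the GLUT1/3 WT clones in Jak2WT and below them in Jak2V617F, and that call was lost in 11 of 15 alternative settings.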

How the results depend on the processing

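With 2 clones a group, leaving out 1 library leaves a lone clone that is assumed to vary like the other groups, and most of the lost calls came from there. Over such fits, the genes called among Alox5ap, Lta4h, Pla2g4a and Ptgs1 with dKO ranged from 0 to 1 higher and 0 to 1 lower in Jak2WT, and from 1 to 1 and 1 to 2 in Jak2V617F. For Jak2V617F against Jak2WT they ranged from 3 to 3 higher and 0 to 1 lower with intact transporters, and from 2 to 2 and 0 to 1 among dKO clones. The interaction ranged from 0 to 1 higher and 0 to 2 lower. The other pathway genes called ranged from 1 to 8 and 10 to 14 with dKO in Jak2WT and Jak2V617F, from 7 to 18 and 4 to 8 between backgrounds, and from 0 to 6 in the interaction.

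Without the filter on low levels the counts of these 4 genes were 0 higher with dKO in Jak2WT, 1 lower with dKO in Jak2V617F, and 0 lower between backgrounds with intact transporters, among dKO clones and in the interaction, and other pathway genes numbered 9 between GLUT1/3 WT clones and 3 in the interaction. In voom on the reads 11 other pathway genes were called with dKO in Jak2WT. Fits of the compared groups alone gave 0 lower with dKO in Jak2V617F, and 8 and 6 other pathway genes for dKO in Jak2V617F and for the backgrounds among dKO clones. Median ratio scaling and a scaling to the same summed FPKM each gave 0 lower in the interaction, and the latter gave 1 lower with dKO in Jak2V617F and called 11 other pathway genes with dKO in Jak2WT. It also turned the sign of Pla2g4a with dKO in Jak2WT (-0.018), Alox5ap with dKO in Jak2V617F (0.038) and Lta4h in the interaction (0.056), none of them called. Leaving out a library turned Alox5ap with dKO in Jak2V617F (range -0.18 to 0.072, turned without clone 3 of Jak2V617F dKO) and Anxa1 between GLUT1/3 WT clones (range -0.56 to 0.13, turned without clone 1 of Jak2WT). Over all alternatives and comparisons, 271 of the log2 differences of the 4 genes kept their direction and side of the threshold, 40 lost their call, 1 gained one and 4 turned.

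Clones of the same number did not deviate together (r from -0.25 to 0.15), so the numbers do not pair the samples. With clone number as a replicate block the interaction had 0 lower calls, Pla2g4a being lost (adjusted p = 0.0746 in limma), and 1 was lower with dKO in Jak2V617F, Lta4h being lost (adjusted p = 0.0580 in limma).

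Over all tested genes, the scaling to the same summed FPKM moved the split from 1812 higher and 1765 lower to 1223 and 2930 for the backgrounds with intact transporters (median log2 shift -0.12) and from 558 and 698 to 1177 and 393 in the interaction (0.12). For dKO it went from 901 and 716 to 706 and 1378 in Jak2WT and from 1614 and 1919 to 2192 and 1452 in Jak2V617F. Without the filter 402 and 312 were called with dKO in Jak2WT and 165 and 181 in the interaction, and in voom 1252 and 1197, and 911 and 907. Fits of the compared groups alone called 764 and 853 with dKO in Jak2V617F and 436 and 592, in place of 842 and 1177, between backgrounds among dKO clones. Without 1 library the calls fell as far as 74 and 36 with dKO in Jak2WT (without clone 1 of Jak2WT GLUT1/3 WT) and 2 and 3 in the interaction (without clone 3 of the same group).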
